A study of Gossypium barbadense and Gossypium hirsutum with 4 samples.

Results

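Strong CENH3 islands on chromosome arms are stretches far from the centromere where reads from a CENH3 chromatin immunoprecipitation (ChIP) outnumber reads from the input DNA. An island is a run of 200 bp windows that the authors' peak caller, SICER, joined and called enriched. An island was counted as a strong arm island when it held 40 or more ChIP reads, had a ratio of ChIP to scaled input of 4 or more, and lay more than 5 Mb from its chromosome's CENH3 centre. The input count was set to at least 3 reads, and the ratio was multiplied by the library constant of the list, 1.64 in Gossypium barbadense and 1.2 in Gossypium hirsutum. The centre was the middle of the 1 Mb window with the most ChIP reads in islands of ratio 8 or more. Of 156610 islands in both lists, 3741 (2.39%) met the rule: 1229 of the 67639 G. barbadense islands and 2512 of the 88971 G. hirsutum islands. These islands were thus chosen by their ChIP reads, ratio and distance, and their size on those measures is a description and not a finding.

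CENH3 is the histone H3 variant that takes the place of canonical H3 in nucleosomes of the active centromere, where the kinetochore, the attachment point of spindle microtubules, is assembled. In plants centromeres usually hold satellite repeats and retrotransposons, but no single sequence fixes where CENH3 lies. Nucleosomes of chromosome arms carry canonical H3 almost throughout.

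Both species are allotetraploid cottons, with the 13 chromosomes A01 to A13 in one subgenome and D01 to D13 in the other. Leaves were taken 4 weeks after planting, nuclei were digested with micrococcal nuclease, and libraries were made with a NEBNext kit. Each species had 1 library from a CENH3 antibody and 1 input library with no antibody. The list of G. barbadense carries the name Hai7124 and that of G. hirsutum the name TM_1. No genotype, treatment or time differed within a species, so the antibody was the only contrast. No library had a replicate, so no spread could be computed and no difference below was tested.

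The lists held 4068080 ChIP and 2164077 input reads inside islands in G. barbadense, and 6132203 and 3522063 in G. hirsutum. Being sums over called regions, they are not library depths. In G. hirsutum 61801 arm islands reached 40 ChIP reads at any ratio, against 17746 in G. barbadense, so counts of islands are not comparable between the lists at equal depth. The centres of D02 and D08 of G. hirsutum rested on 84 and 129 ChIP reads in islands of ratio 8 or more, and values from those chromosomes' distances are less firm. All intervals are 95% exact binomial (Clopper-Pearson) intervals that cover counting error alone, since PCR copies of 1 molecule could not be told from separate molecules. Coordinates are 1-based on each list's own assembly, whose build is not given in the sources used here, and the assemblies differ.

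Most strong arm islands were short and just above the read limit: 73.1% of them in G. barbadense and 57.3% in G. hirsutum held 40 to 50 ChIP reads. In G. barbadense they had a median length of 1400 bp (quartiles 1200 and 1800), 45 ChIP reads (42 and 52) and 14 input reads (10 and 17). The G. hirsutum medians were 1200 bp (1000 and 1600), 48 ChIP reads (43 and 58) and 12 input reads (10 and 15). The ratio had a median of 5.39 with a range from 4.01 to 37.7 in the first list, and a median of 4.69 with a range from 4 to 22.8 in the second. A ratio of 8 or more was reached by 251 of the 1229 islands (20.4%) and by 164 of the 2512 (6.53%).

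Close to the limits the islands on either side were alike. Exactly 40 ChIP reads were held by 162 strong arm islands of G. barbadense and 228 of G. hirsutum, and 144 and 195 further arm islands of ratio 4 or more stopped at 39 reads. The lowest ratio kept in G. barbadense was 4.01, shared by 13 islands on 11 chromosomes, each with 44 ChIP and 18 input reads. In G. hirsutum it was 4, shared by 107 islands on 21 chromosomes with 40 to 120 ChIP reads. The highest ratios left out were 3.98 (3 islands) and 3.99 (2 islands). On the distance limit, D06 of G. barbadense had islands of 8.20 just inside 5 Mb and of 6.90 just outside it, so the limit passed through 1 group of islands. The G. hirsutum islands nearest to the limit were on A04, counted, with a ratio of 5.72, and on A10 at 4.98 Mb, not counted, with a ratio of 5.

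The rule kept 2.51% of the 49053 arm islands in G. barbadense and 3.23% of the 77784 in G. hirsutum. Together the strong arm islands covered 1.94 Mb and 3.5 Mb and held 1.55% and 2.24% of all listed ChIP reads. In G. barbadense they held 62852 ChIP and 17954 input reads, a summed ratio of 5.74 (interval 5.65 to 5.84). In G. hirsutum they held 137078 and 33748 reads, a summed ratio of 4.87 (4.82 to 4.93). The highest authors' p-value among them, a Poisson p over ChIP and scaled input reads, was 8.30e-14 for G. barbadense and 1.61e-13 for G. hirsutum. Those values compare 2 libraries and not 2 conditions. They are computed from the same reads that chose the islands, so they lend the islands no support. In each list the highest value was the same among islands of these read and ratio limits within 1 Mb of the centre and between 1 and 5 Mb. With any number of ChIP reads, 8883 arm islands of G. barbadense and 5784 of G. hirsutum had a ratio of 4 or more.

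Islands passing the same read and ratio limits within 1 Mb of the centre give the scale of centromeric CENH3 in these libraries. There the limits kept 6638 of 10194 islands, or 65.1%, in G. barbadense, and 1486 of 2915, or 51%, in G. hirsutum. Those core islands had median ratios of 30.6 and 9.6, against 5.39 and 4.69 for the strong arm islands, which are thus strong only beside other arm islands. Core islands held 33.3% of all listed ChIP reads in G. barbadense, at a summed ratio of 26.2. In G. hirsutum they held 2.59%, at a summed ratio of 8.94, close to the 2.24% in strong arm islands. Centromeric enrichment was thus far lower in the G. hirsutum list, which limits every contrast between the lists. Per kb of island, core islands in G. barbadense had a median of 86.7 ChIP and 4.0 input reads, and strong arm islands had 32.9 ChIP and 9.0 input reads. The core medians of G. hirsutum were 48.5 ChIP and 6.0 input reads per kb, and the arm medians were 40.8 and 10. ChIP read density in the core was thus 2.64 times that of strong arm islands in G. barbadense but 1.19 times in G. hirsutum. Islands between 1 and 5 Mb from the centre were close to the arm islands, with median ratios of 5.15 (264 islands) and 4.8 (339).

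The other side of the comparison is the arm islands of 40 or more ChIP reads whose ratio stayed under 4, 16517 in G. barbadense and 59289 in G. hirsutum. These weaker islands were longer, with medians of 2000 and 2200 bp. Their ChIP density was 26.8 and 30.0 reads per kb, so that of strong arm islands was 1.23 and 1.36 times as high. Their input density was 23.6 and 17.8 reads per kb, or 2.63 and 1.78 times that of strong arm islands. On these medians the strong and weaker arm islands stood further apart in input reads than in ChIP reads in both lists. Both sets share the limit of 40 ChIP reads and are divided by the ratio alone, so that gap follows from the rule and is not a finding.

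**Figure D1:**
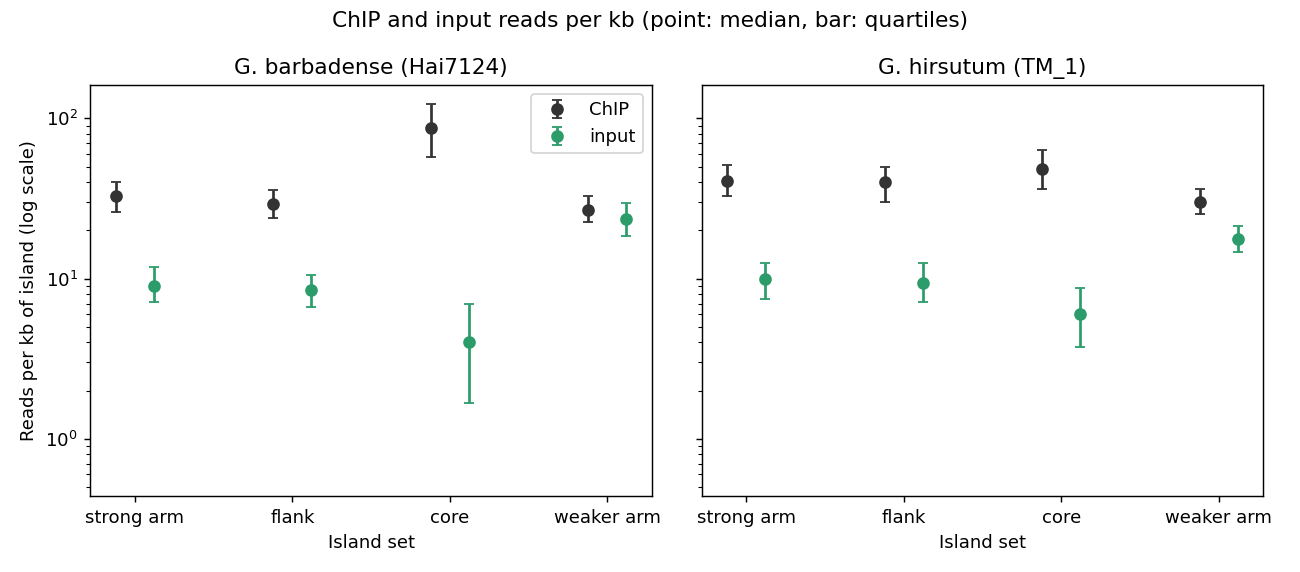
ChIP and input reads per kb of island (log axis) for strong arm islands, islands of the same limits 1 to 5 Mb from the centre (flank) and within 1 Mb (core), and weaker arm islands; points are medians over islands and bars are quartiles. ChIP and input stand furthest apart in the core, and strong arm islands are at 32.9 ChIP and 9.0 input reads per kb for G. barbadense and at 40.8 and 10 for G. hirsutum.

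Strong arm islands occurred on all 26 chromosomes of both species, and the subgenome that held more of them per Mb was D for G. barbadense and A for G. hirsutum. In G. barbadense the A arms held 598 islands, or 0.482 per Mb of arm, and the D arms 631, or 0.925 per Mb. Over the 13 chromosomes of each subgenome the density was 0.485 ± 0.095 (SD) in A and 0.932 ± 0.249 in D. The A arms of G. hirsutum held 1966 islands, or 1.52 per Mb, and the D arms 546, or 0.795 per Mb, with 1.53 ± 0.181 and 0.801 ± 0.186 over chromosomes. Chromosomes of 1 library share that library and are not replicates.

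The direction held in each homoeologous pair, taken here as the A and D chromosomes of the same number. Pairs were formed by number alone, and translocations between A chromosomes were not taken into account. In G. barbadense the D chromosome had the higher density in 13 of 13 pairs, with log2 A to D from -1.65 in pair 7 to -0.35 in pair 9 and a median of -0.99. In G. hirsutum the A chromosome had the higher density in 13 of 13 pairs, from 0.47 in pair 1 to 1.38 in pair 6 with a median of 1.07. The log2 of the pooled densities was -0.94 (interval -1.1 to -0.78) in G. barbadense and 0.94 (0.80 to 1.08) in G. hirsutum. Among islands of ratio 8 or more it was -1.50 (-1.89 to -1.13) in G. barbadense, from 98 A and 153 D islands. In G. hirsutum that value was 0.49 (-0.01 to 1.02), from 119 A and 45 D islands, and its interval reached 0. These log2 intervals take each island as a separate draw. Islands of 1 library are not replicates and some lay close together, so the intervals are no test.

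The number of all islands per Mb moved with part of this pattern. The A arms of G. hirsutum held 45.0 islands of any strength per Mb and the D arms 28.6, so the strong ones made up 3.38% of A arm islands and 2.78% of D arm islands. Counted that way A was higher in 10 of 13 pairs, with a median log2 of 0.35 and a range from -0.12 to 0.71. In G. barbadense the densities of all arm islands were 26.5 per Mb in A and 23.8 in D, and the strong ones made up 1.82% of A and 3.89% of D arm islands. D was higher by this share too in 13 of 13 pairs, with a median log2 of -1.1. The part that mappable sequence or read depth had in these densities was not tested.

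**Figure D2:**
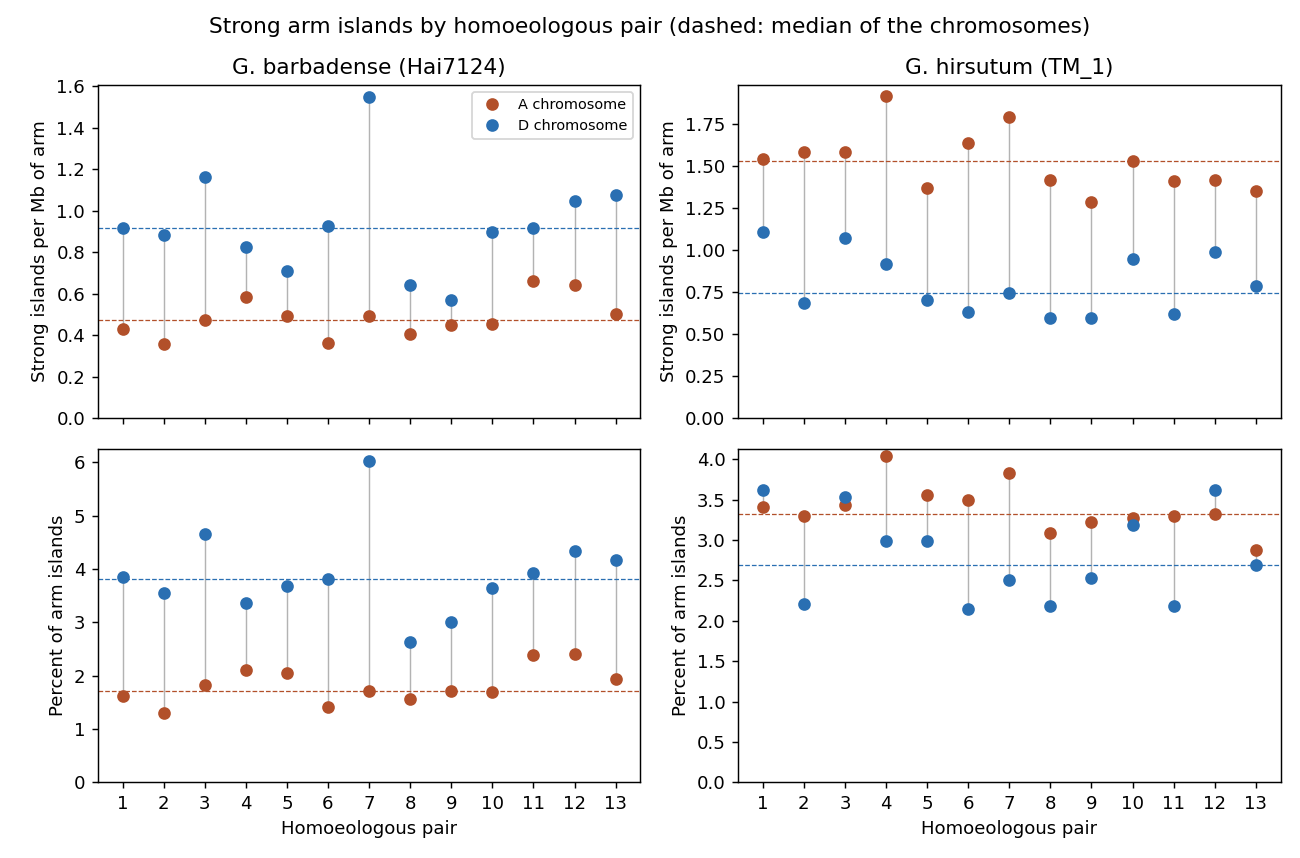
Strong arm islands per Mb of arm (top) and as a percentage of all arm islands (bottom) on the A and D chromosome of each of the 13 homoeologous pairs, joined by a line; dashed lines are medians over chromosomes. D is above A in 13 of 13 pairs on both scales in G. barbadense, while in G. hirsutum A is above D in 13 of 13 pairs per Mb and in 10 of 13 as a percentage.

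By chromosome, the highest densities in G. barbadense were on D07 (1.55 per Mb), D03 (1.16) and D13 (1.07), and the lowest on A02 (0.359), A06 (0.361) and A08 (0.406). On D07, 34 of the 73 islands lay together near its start and are described further on. Among G. hirsutum chromosomes the highest were on A04 (1.92), A07 (1.79) and A06 (1.64), and the lowest on D08 (0.595), D09 (0.596) and D11 (0.620).

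**Figure D3:**
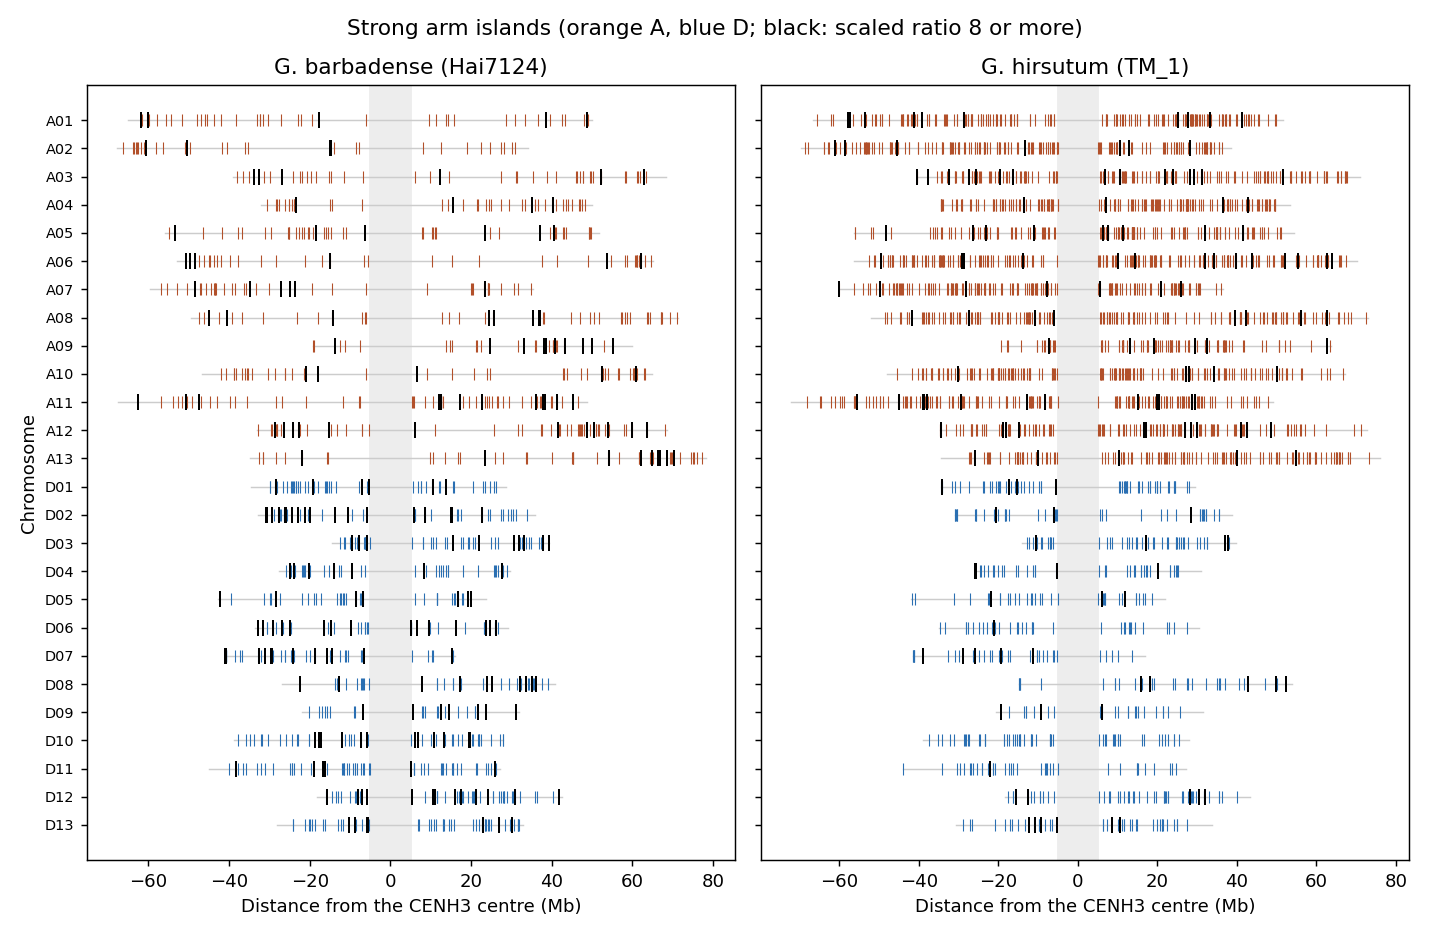
Each strong arm island as a tick at its signed distance from the CENH3 centre in Mb, 1 row per chromosome (grey line: its length; grey band: the 5 Mb left out on each side; black ticks: ratio of 8 or more). Ticks run along whole arms, denser on D rows in G. barbadense and on A rows in G. hirsutum.

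Along the arms of A chromosomes the trend with distance from the centre ran opposite ways in the 2 lists. In G. barbadense the density in A arms was 0.262 per Mb at 5 to 10 Mb from the centre, 0.340 at 10 to 20 Mb, 0.461 at 20 to 40 Mb and 0.680 beyond 40 Mb. All arm islands thinned out over the same bins, so the strong ones rose from 0.780% to 2.99% of them. Beyond 20 Mb the density was higher than at 5 to 20 Mb on 11 of 13 A chromosomes, and the share of arm islands on 13 of 13. In G. hirsutum the A densities were 1.89, 1.73, 1.69 and 1.1 per Mb over the same bins, and the share went from 3.73% to 3.05%. There the density beyond 20 Mb was the higher one on 1 of 13 A chromosomes, and the share on 3 of 13. All A arm islands of G. hirsutum thinned out too, from 50.7 per Mb at 5 to 10 Mb to 35.9 beyond 40 Mb. The share changed less than the density, with 3.37% and 3.51% in the middle bins.

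On D arms the density showed no steady course. In G. barbadense the densities were 1.04, 0.780 and 0.906 per Mb in the bins up to 40 Mb. The value beyond 40 Mb was 3.12 per Mb, but 34 of its 38 islands were the group at the D07 start, and the other 4 gave 0.342 per Mb. The share of arm islands was 3.56%, 3.11% and 4.4% in the bins up to 40 Mb and 3.48% beyond it without the D07 start, and it was higher beyond 20 Mb than at 5 to 20 Mb on 10 of 13 D chromosomes. The D densities of G. hirsutum were 0.792, 0.880, 0.735 and 0.654 per Mb, while the share went from 2.33% through 2.81% and 3.0% to 3.04% and was higher beyond 20 Mb on 8 of 13. Of the 16 islands beyond 40 Mb there, 5 were at the D07 start, and the other 11 made up 2.19% of arm islands.

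**Figure D4:**
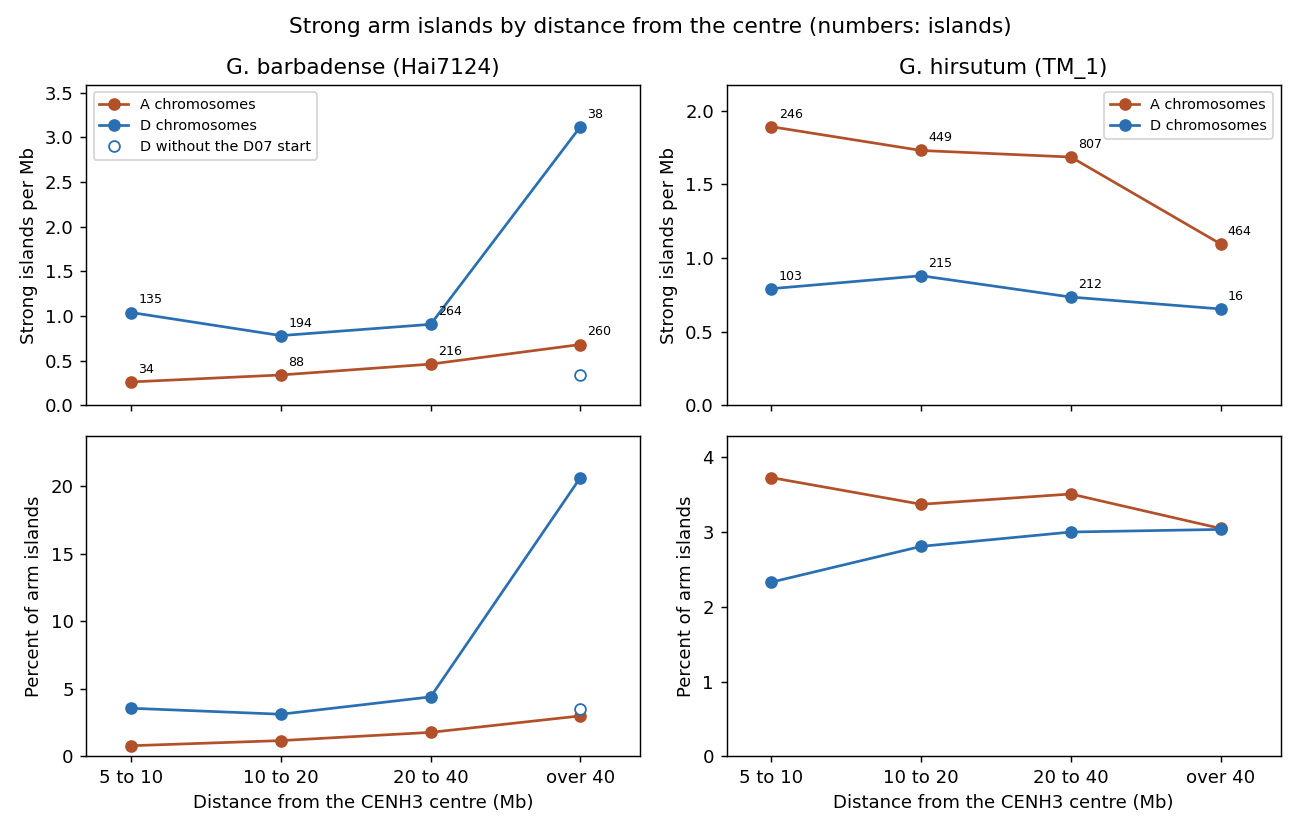
Strong arm islands per Mb (top) and as a percentage of all arm islands (bottom) in bins of distance from the CENH3 centre, for A and D chromosomes of each list; figures in the upper plots count islands, and the open circle leaves out the D07 start of G. barbadense. In A arms the density climbs from 0.262 to 0.680 per Mb in G. barbadense and falls from 1.89 to 1.1 in G. hirsutum.

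Chromosome starts held many strong islands in G. hirsutum. The first 1 Mb of its 26 chromosomes held 49 islands on 15 chromosomes, 1.88 per Mb and 6.99% of the arm islands there. The last 1 Mb held 5 islands on 4 chromosomes, 0.192 per Mb and 1.37%. The rest of the arms held 1.28 per Mb and 3.20%. In G. barbadense the first 1 Mb held 40 islands, of which 34 were on D07 and the other 6 on 4 chromosomes; they were 9.03% of the arm islands there with D07 and 1.61% without it. The last 1 Mb held 15 islands, or 4.67%, and the rest of the arms 2.43%. Without D07 the first 1 Mb of G. hirsutum held 44 islands, or 6.54%. Starts and ends are those of the assembled sequences, and a telomere was not looked for.

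Strong arm islands were mostly single. A cluster was taken as 2 or more of them with gaps of at most 100 kb. In G. barbadense 258 of the 1229 islands (21.0%) were in 102 clusters, 91 of them pairs and 11 with 3 or more islands. In G. hirsutum 719 of the 2512 (28.6%) were in 312 clusters, 255 pairs and 57 larger. The median gap between neighbours was 845 kb in G. barbadense and 465 kb in G. hirsutum, and a denser set has more neighbours within 100 kb by its density alone. By subgenome the share in clusters was 15.7% in A and 26% in D in G. barbadense, and 30.6% in A and 21.6% in D in G. hirsutum, the same order as the densities. Weaker arm islands were denser, at 8.59 per Mb in G. barbadense and 30.0 in G. hirsutum. With the same gap 84.5% and 99.1% of the weaker ones were in clusters.

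The surroundings of strong arm islands were ordinary in number and differed in strength in G. barbadense. The median number of other islands within 50 kb was 3 for the G. barbadense list and 5 for the G. hirsutum list, as it was for weaker arm islands. The nearest island also had a ratio of 4 or more, at any read count, for 29.0% of strong arm islands in G. barbadense and for 15.4% of weaker ones. Without the D07 start the first value was 27.6%. For G. hirsutum islands the values were 8.36% and 7.14%. Of all arm islands in G. barbadense, 8883 of 49053 had a ratio of 4 or more. The sets compared there also differed in make-up: 631 of the 1229 strong islands were on D chromosomes, against 4613 of the 16517 weaker ones. The shares were not split by subgenome, so the part that subgenome had in this difference was not tested.

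The start of D07 in G. barbadense held the largest cluster of either list. Between D07:61001-280400, a stretch of 219.4 kb, 34 strong islands held 3633 ChIP and 685 input reads, a ratio of 8.70 (8.01 to 9.45). Their ratios ran from 4.44 to 37.7 with a median of 8.38, and 18 of the 34 were 8 or more. Their ChIP reads ran from 40 to 314 with a median of 85.5, against 45 over all strong arm islands of the list. The stretch held 63 islands in all, which covered 39.2% of it and had a summed ratio of 6.35. It lay 40.8 Mb from the D07 centre.

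The size of the signal shows in 4 islands of this stretch. D07:251601-252200 was 600 bp long and held 92 ChIP and 4 input reads, a ratio of 37.7 (14.2 to 141). D07:236401-237400 held 177 ChIP and 8 input reads, a ratio of 36.3 (18.0 to 85.4). D07:240401-242000 held 193 and 10 reads, a ratio of 31.7 (16.8 to 67.1). The island with the most ChIP reads, D07:228001-233800, held 314 ChIP and 79 input reads and a lower ratio of 6.52 (5.08 to 8.45). The first 3 are among the 8 highest ratios of strong arm islands of the list and were named for that. Core islands of the list had a median ratio of 30.6 and reached 243. The cluster as a whole, at 8.70, lay below the summed ratio of the core islands on D07, 22.9 (22.1 to 23.7).

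The rest of the D07 start was not uniform. In the first 0.5 Mb the list held 69 islands: the 34 strong ones, 15 of ratio 4 or more with fewer than 40 reads, and 20 of lower ratio. The very first island, D07:1-14400, held 5593 ChIP and 8094 input reads at a ratio of 1.13, the largest read count of the stretch at one of its lowest ratios. The last island ended at 280400. All strong arm islands of D07 together held ChIP reads equal to 11.1% of those in its core islands.

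The start of D07 in G. hirsutum held fewer strong islands, at a lower summed ratio. Its first 0.5 Mb held 24 islands, 5 of them strong, at D07:17601-20000 (90 ChIP and 26 input reads, ratio 4.15), D07:30401-36800 (458 and 127, 4.33), D07:97401-99400 (81 and 22, 4.42), D07:137201-142600 (179 and 43, 5) and D07:166801-167400 (50 and 8, 7.5). Together they gave a ratio of 4.56 (3.93 to 5.30). The core islands of D07 also had a lower summed ratio in this list, 10.3 (9.22 to 11.6) against 22.9 in G. barbadense. The lower ratios at the start are thus not particular to it. None of the other 19 islands in that first 0.5 Mb had a ratio of 4 or more, while 15 further ones did in G. barbadense. Those 15 all held fewer than 40 ChIP reads, some fewer than 20, and the G. hirsutum list holds no island of fewer than 20. The contrast is therefore not like for like. The first island of D07 in G. hirsutum, D07:1-13800, held 4063 ChIP and 3750 input reads at a ratio of 1.30. Both lists thus open D07 with a long island of many reads and a ratio near 1.

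**Figure D5:**
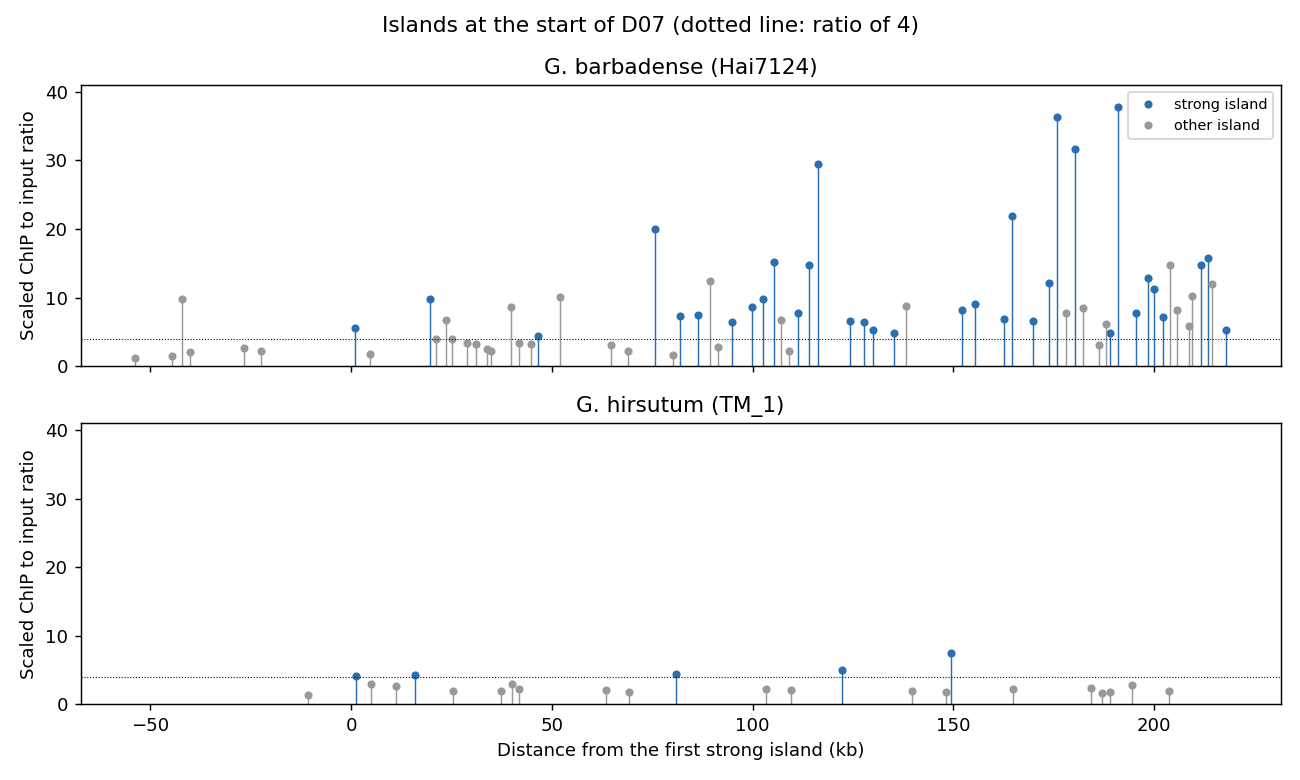
Ratio of ChIP to scaled input of each island in the first 0.5 Mb of D07 (linear axis) against its distance from the first strong island in kb, with strong islands in blue, other islands in grey and a dotted line at the ratio of 4. In G. barbadense 34 of 69 islands are strong and reach 37.7, and in G. hirsutum 5 of 24 are strong and reach 7.5.

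The next clusters by size in G. barbadense lay inside arms. A11:79997001-80140400, 12.5 Mb from the centre, held 8 strong islands with 1855 ChIP and 558 input reads, a ratio of 5.45 (4.96 to 6). It included the longest strong arm island of the list, A11:80102601-80121800, 19200 bp with 987 ChIP and 333 input reads and a ratio of 4.86 (4.29 to 5.52). Its neighbour A11:80124401-80132600 held 344 and 59 reads, a ratio of 9.56 (7.24 to 12.8). D06:38499401-38564600 held 7 strong islands with 839 and 196 reads, a ratio of 7.02 (6 to 8.24), among them D06:38559401-38564600 at 19.5 (11.7 to 34.8). This is the group that the distance limit crosses: with the islands on the near side it ran over 244.8 kb and 15 islands of the same strength, of which 8 were not counted. D05:54270401-54464200 held 4 islands with 203 and 60 reads, a ratio of 5.55 (4.14 to 7.53). A pair of other clusters also held 4 islands but fewer ChIP reads, A11:108793801-108945400 with a ratio of 8.29 (5.80 to 12.1) and A13:101118801-101216000 with a ratio of 8.94 (6.07 to 13.6).

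Of the 4 largest clusters of G. hirsutum, 3 were wider and had a lower ratio than any of those 4 of G. barbadense. A07:85647601-86096200 held 14 strong islands with 1088 ChIP and 272 input reads, a ratio of 4.8 (4.20 to 5.50), among 69 islands that covered 63.4% of the stretch at a summed ratio of 2.80. A05:69741401-69982800 and A09:12105401-12344000 held 7 each, with ratios of 4.72 (4.10 to 5.45) and 5.10 (4.21 to 6.21). D04:78201-187000, at a chromosome start, held 6 with 407 and 72 reads. Its ratio of 6.78 (5.27 to 8.84) was the highest of these 4, and it held 9 islands in all, with a summed ratio of 7.52.

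Among single strong arm islands of highest ratio, 4 of the 8 in G. barbadense were at the D07 start. The other 4 were D03:45107001-45108600 (59 ChIP and 3 input reads, 32.3), A13:105140801-105141800 (53 and 0), A02:17530801-17532000 (52 and 2) and A09:52256201-52257200 (47 and 1). With so few input reads the ratio is poorly fixed: the D03 island's interval ran from 10.5 to 161. In the A13 island the input floor of 3 reads gave a ratio of 29.0. In all, 22 strong arm islands of G. barbadense and 9 of G. hirsutum held fewer than 3 input reads, and 7 and 1 held none.

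In G. hirsutum the 8 strong arm islands of highest ratio held 42 to 57 ChIP and 0 to 3 input reads and were scattered over 8 chromosomes. The highest was A10:75890401-75891200 with 57 and 2 reads and a ratio of 22.8. The 8 with the most ChIP reads were of another kind, with ratios from 4.07 to 5.39, and 7 of them lay in the first 1 Mb of a chromosome. They were led by A07:55601-65600 with 782 ChIP and 224 input reads, a ratio of 4.19 (3.61 to 4.88), followed by D07:30401-36800. The exception inside an arm was A05:69827801-69835400 with 277 and 70 reads, a ratio of 4.75 (3.64 to 6.26).

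Positions in the 2 species could be set side by side only as a share of chromosome length, since the assemblies differ. Within 0.5% of the length of the same chromosome, 58.5% of strong arm islands in G. barbadense had a strong arm island of G. hirsutum, against 69.7% of the weaker ones. For G. hirsutum the values were 36.3% and 36.9%. By subgenome, strong and weaker islands of G. barbadense had 76.1% and 81.8% in A, and 41.8% and 38.5% in D. In G. hirsutum they had 34.2% and 35.6% in A, and 43.8% and 40.9% in D. The D value of G. barbadense rested on the D07 start: without the first 0.5 Mb of D07 it was 38.5% for strong and 38.3% for weaker islands, and in G. hirsutum 43.3% and 40.9%. These shares were not tested, and islands that match by sequence were not looked for.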

How the data were processed

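CENH3 ChIP and input DNA of leaf were measured in 1 library each per species, 4 in all, grouped by the sample titles. Per the submitters' processing notes, the authors used Trimmomatic, Bowtie2 and SICER; their versions and the genome builds are not given in the sources used here. Names of the deposited lists record windows of 200 bp, gaps of 400 bp and a false discovery rate of 0.01. The lists have no header, and columns were read in SICER's usual order. For each island the authors deposited a raw count of ChIP reads and a raw count of input reads, a p-value and a fold, which is a linear ratio. Within a list, fold times input over ChIP reads was a constant, which a script computed and rounded to 2 decimals. The p-value was recomputed as a Poisson upper tail with the input count over that constant as expectation, leaving out islands without input reads and extremely small p-values, and 100% of 63130 and 100% of 88619 values matched within 0.01 on the log10 scale.

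Islands were assigned to windows, centres and arms by their midpoint, and windows moved in steps of 100 kb. Arm length runs from the first base to the end of the last island, without the 5 Mb on each side of the centre. The interval of a log2 density is computed from the A and D island counts, with each island taken as a separate draw. The selection was tested on simulated data with known strong islands. The islands, sets and alternatives were chosen with earlier results of these data known. Named regions are, per list, the 8 of highest ratio, the 8 with the most ChIP reads, the 4 clusters with the most islands (ties by ChIP reads), the 3 chromosomes of highest and lowest density, and those nearest each limit. D07 starts, values without the D07 start and clusters at chromosome starts were added after the values were seen. No genome of either build was used here, so no sequence, gene, exon or repeat is given, and DNA outside islands has no value. Python 3.11.15, NumPy 2.4.6, pandas 2.3.3, SciPy 1.17.1 and matplotlib 3.10.9 were used. Alternatives changed the distance, ratio, read and input limits, the centre, the gap and the chromosomes kept.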

Additional observations from a re-analysis of the deposited data

Results flagged for a closer look

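The density of strong arm islands on A against D chromosomes went opposite ways in the 2 species. Its log2 was -0.94 in G. barbadense, where D was higher in 13 of 13 pairs, and 0.94 in G. hirsutum, where A was higher in 13 of 13 pairs. In G. hirsutum all arm islands were also denser in A, at 45.0 per Mb against 28.6 in D. The strong ones made up 3.38% of arm islands in A and 2.78% in D there, with A higher in 10 pairs and D in 3. In G. barbadense the shares were 1.82% in A and 3.89% in D, with D higher in 13 of 13 pairs. The difference between the species was not tested, since each had 1 ChIP and 1 input library.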

How the results depend on the processing

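No setting turned the direction of a subgenome contrast: log2 A to D stayed negative in G. barbadense and positive in G. hirsutum under each of the 13 and 14 alternatives run, from -2.58 to -0.68 and from 0.49 to 1.08. It moved beyond its counting interval at ratio 8 or more (-1.50 and 0.49), ratio 3 or more (-0.68 in G. barbadense), 80 or more ChIP reads (-2.58 in G. barbadense), 20 or more (0.74 in G. hirsutum) and with the G. hirsutum minimum scaled by the lists' summed ChIP reads to 60.3 (1.08). The number of islands in G. barbadense and G. hirsutum was 251 and 164 at ratio 8, 2429 and 8401 at ratio 3, 43 and 182 at 80 reads, 7935 and 5784 at 20 reads, and 523 in G. hirsutum with the scaled minimum. The percentage in clusters was 13.9 and 4.88 at ratio 8, 31.0 and 63.8 at ratio 3, 65.1 and 13.2 at 80 reads, 62.4 and 49.6 at 20 reads, 14.1 and 16.2 with gaps of up to 50 kb, 33.9 and 47.1 with gaps of up to 200 kb, and 12.4 in G. hirsutum with the scaled minimum. In G. barbadense it was 18.7 without D07, without the cluster at the D07 start, and without the first and last 1 Mb. The 34 strong islands at the D07 start had a median of 85.5 ChIP reads, so many of the 43 G. barbadense islands at 80 reads were from that 1 cluster. The values at 80 reads were not computed without it. At 20 reads the limit left out no G. hirsutum island, since 20 was the lowest count of that list. The causes of these moves were not tested. Several alternatives left the number of islands and the log2 as they were. In G. barbadense these were input minimums of 1 and 10, centres from islands of ratio 4 or more, and the unrounded constant (1229 islands). In G. hirsutum they were the input minimum of 1 and the unrounded constant (2512 islands). An input minimum of up to 10 cannot bring an island of 40 ChIP reads under a ratio of 4. It could act only through the centres, so the unchanged values say little. The log2 of the share of arm islands was not among the alternatives. Leaving out the D07 start or the ends, leaving out D02 and D08 of G. hirsutum, and unrounded constants were chosen after seeing the data. No paired analysis was possible because each group has 1 sample and no result comes from a test. With 40 to 50 ChIP reads in most islands, a single island's ratio is known only within wide counting limits.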
